A study of Homo sapiens with 4 samples.

Results

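YAP1, its paralog WWTR1 (the gene of TAZ), the 4 TEAD genes and 4 of their best known target genes were followed in cells labelled HepG2, a line derived from a human liver tumour. The 10 genes were taken by symbol from a table of 57979 gene rows, where CTGF (now CCN2) and CYR61 (now CCN1) stood under their older names, and each symbol occurred on 1 row. The table held 2 wild-type (WT) libraries and 2 TXNDC9 knockout (TXNDC9-KO) libraries of polyadenylated RNA. All cells were grown in DMEM with fetal bovine serum. In the knockout, CRISPR-Cas9 guides delivered in lentiCRISPRv2 had been aimed at the first exon of TXNDC9, a thioredoxin-like cofactor of the chaperonin TRiC. The study describes sorting of infected cells for its protein blots, and independent experiments for a panel that joins RNA-seq with RT-qPCR. The labels of the libraries name neither a guide or clone nor separate cultures, so p-values measure only the spread between these libraries, which may be technical.

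The Hippo pathway is a kinase cascade that restrains organ size. Its kinases MST1/2 activate LATS1/2, and LATS1/2 phosphorylate YAP and TAZ, which then stay in the cytoplasm or are degraded. When the cascade is off, YAP and TAZ enter the nucleus and, having no DNA-binding domain of their own, act through TEAD transcription factors. In liver the pathway is known for its control of hepatocyte growth and of tumour formation. Phosphorylation and localization of the proteins are not seen in RNA.

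All values are FPKM (fragments scaled by transcript length and by library size), so levels of different genes can be set side by side per length. All 10 genes had a mean above 1 FPKM over the 4 libraries, the limit for testing, and all 10 also exceeded it in each single library. A gene was called when limma with Benjamini-Hochberg adjustment over 13246 genes gave an adjusted p under 0.01 and the groups differed at least 2-fold on the log2(FPKM + 0.1) scale, which understates the change of low genes. With 2 libraries against 2, an exact permutation test of a single value cannot go below p = 0.333.

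TXNDC9 itself was 35.1 and 37.3 FPKM in WT and 21.9 and 27.6 FPKM in TXNDC9-KO libraries, and its log2 fold change was −0.55 (adjusted p = 0.0145 in limma, not called). On values rescaled to TPM it was 0.12. An edited gene can still be transcribed, so this value alone does not check the labels. The FPKM of all genes summed to between 805816 and 971102 in WT and between 535973 and 568280 in TXNDC9-KO libraries. Rescaling to a common sum (TPM) therefore moved the median log2 fold change of all genes from −0.09 to 0.59. The markers of the labelled cell type were absent. None of 9 hepatic genes (ALB, AFP, APOA1, SERPINA1, FGB, TTR, TF, HNF4A and FOXA2) reached 1 FPKM in any library, the highest value being 0.449 FPKM for AFP in a WT library, while APOA1 and FOXA2 were listed at 0 throughout. Of 7 mesenchymal markers (COL1A1, COL1A2, COL3A1, DCN, LUM, THY1 and PDGFRB), COL1A2 was listed at 0 in all libraries. The list summed to 49.7 and 54.3 FPKM in WT and 34.6 to 38.5 FPKM in TXNDC9-KO libraries. Of the 4 tested, 1 (PDGFRB) was called higher and 0 lower, where 14.2% and 15.3% of all tested genes were. The mean of PDGFRB was 0.905 FPKM in WT and 2.81 FPKM in TXNDC9-KO libraries. PDGFRB thus passed the limit for testing only through the knockout libraries, which left little room for a lower call. COL1A1, COL3A1 and DCN lay below both WT values in both TXNDC9-KO libraries, as did 45.9% of all tested genes. Among them, COL3A1 alone passed the p threshold (log2 fold change −0.70, adjusted p = 0.00503 in limma). Of 4 endothelial markers, PECAM1, VWF and TEK stayed under 1 FPKM and were not tested. CDH5 was called higher, as were 14.2% of all tested genes, from 0.751 and 1.07 to 4.26 and 3.14 FPKM. Its WT mean was 0.909 FPKM, so it too passed the limit for testing only through the knockout libraries. In bulk RNA, fewer cells of a type and less RNA per cell cannot be told apart. Whether these markers came from other cells in the cultures, and whether the line is the one labelled, was not tested.

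TEAD proteins bind the sequence GGAATG, and the promoters of the members show how differently the genes carry it. RefSeq promoters (GRCh38.p14, 250 bases before to 50 after the start site) were matched for 7 of the 10 genes, at 10 start sites. TEAD1, TEAD4 and CYR61 had no entry. The motif was searched on both strands, and 14.0% of 35116 promoters held it at least once, 1.37% at least 2 times and 0.128% at least 3 times. CTGF held 3 copies, at 169, 104 and 95 bases before the start. ANKRD1 held 2 copies, at 220 and 128 bases before the start, with the AP-1 motif TGANTCA (in 7.71% of all promoters) between them at 195 bases and no shared base. YAP1 held 1 copy at 162 bases, and AMOTL2 held 1 copy on the opposite strand at 69 bases before the second of its start sites. The promoters of WWTR1, TEAD2 and TEAD3 held neither motif in these windows. The stretches below are those with a TEAD motif, shown because they differ in the number and spacing of copies, with the motifs in capitals and each read along the strand of its gene.

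CTGF, chr6:131951447-131951556, minus strand: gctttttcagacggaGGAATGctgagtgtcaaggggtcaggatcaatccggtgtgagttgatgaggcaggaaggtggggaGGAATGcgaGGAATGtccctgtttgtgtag

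ANKRD1, chr10:90921195-90921322, minus strand: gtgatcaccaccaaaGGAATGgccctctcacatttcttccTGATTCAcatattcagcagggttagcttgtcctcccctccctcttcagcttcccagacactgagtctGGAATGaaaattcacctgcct

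YAP1, chr11:102110270-102110305, plus strand: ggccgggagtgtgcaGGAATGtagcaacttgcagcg

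AMOTL2, chr3:134374496-134374531, minus strand: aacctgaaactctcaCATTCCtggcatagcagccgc

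Across the 10 genes, YAP1, TEAD1 and CTGF rose in the TXNDC9-KO libraries and TEAD4 fell. WWTR1 and TEAD2 passed the p threshold but not the fold, and TEAD3, CYR61, ANKRD1 and AMOTL2 did not pass the p threshold. Thus 3 of 10 members were called higher, where 14.2% of all tested genes were, and 1 of 10 was called lower, where 15.3% were. By p alone, 4 members were higher and 2 lower, against 23.7% and 27.1% of all tested genes. The WT and TXNDC9-KO values did not overlap for any member, 6 lying above WT and 4 below, which also held for 40.1% and 45.9% of all tested genes. The median log2 fold change of the members was 0.48, and that of all tested genes −0.09.

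**Figure D1:**
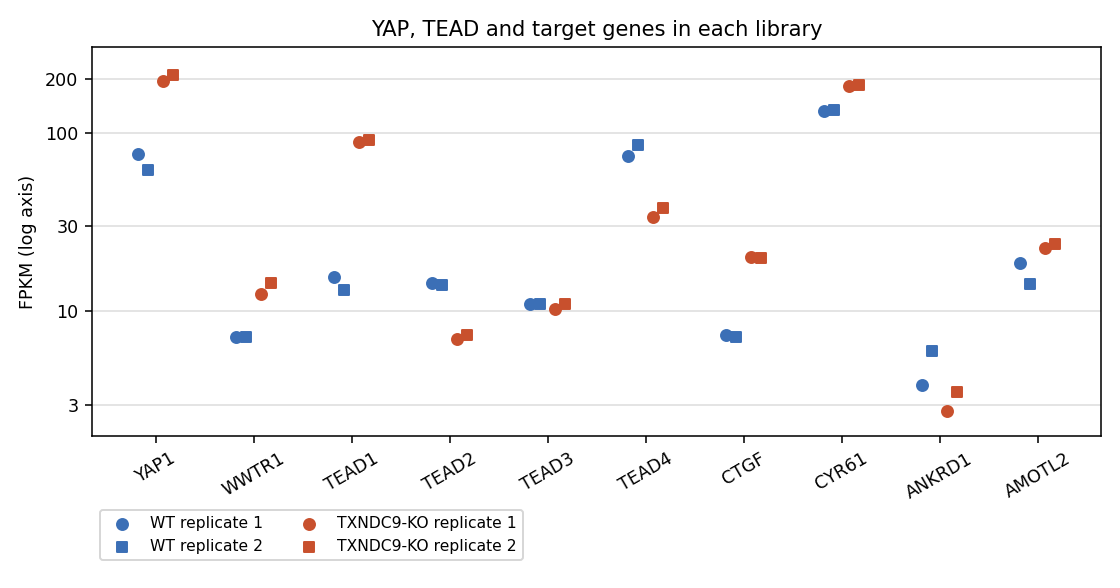
FPKM of the 10 genes (log axis) in each of the 4 libraries, WT in blue and TXNDC9-KO in red, with circles for replicate 1 and squares for replicate 2. TEAD1 stands at 15.5 and 13.1 FPKM in WT and at 88.6 and 91.2 FPKM in TXNDC9-KO libraries, while the TEAD3 values nearly touch.

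YAP1 (ENSG00000137693, hg38 chromosome 11 from 102110447 to 102233424), the coactivator restrained by the Hippo kinases, was 75.9 and 62.1 FPKM in WT and 194 and 211 FPKM in TXNDC9-KO libraries. Both knockout values exceeded the higher WT value more than 2-fold. The means were 69.0 ± 9.75 and 202 ± 12.3 FPKM (SD, n = 2). On the log2 scale YAP1 rose by 1.56 with a standard error of 0.14 (adjusted p = 6.05e-04 in limma). WWTR1 (ENSG00000018408, chromosome 3 from 149517235 to 149736714) encodes TAZ, which shares the TEAD-binding function of YAP. It was 7.16 and 7.19 FPKM in WT and 12.5 and 14.3 FPKM in TXNDC9-KO libraries. Its log2 fold change was 0.89 ± 0.12 (SE, adjusted p = 0.00142 in limma), or 1.85-fold, short of the fold needed for a call.

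YAP1 was the main transcript of the pair in every library. Together they gave 83.05 and 69.3 FPKM in WT and 206 and 225 FPKM in TXNDC9-KO libraries. The ratio of YAP1 to WWTR1, which no scaling of a library can move, was 10.6 and 8.635 in WT and 15.5 and 14.7 in TXNDC9-KO libraries. The groups did not overlap (exact permutation p = 0.333, two-sided, the smallest possible). Both genes share exon sequence with annotated genes on the other strand, 2 for YAP1 and 1 (WWTR1-AS1) for WWTR1, and the use of strand in the counting is not given in the sources used here, so these values may include antisense reads.

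The 4 TEAD genes, which encode the DNA-binding partners of YAP and TAZ, moved in different directions. TEAD1 (ENSG00000187079, chromosome 11 from 12674421 to 12944737) was 15.5 and 13.1 FPKM in WT and 88.6 and 91.2 FPKM in TXNDC9-KO libraries. It rose 6.27-fold, with a log2 fold change of 2.65 ± 0.12 (SE, adjusted p = 4.86e-04 in limma), the largest among the 10 members. TEAD4 (ENSG00000197905, chromosome 12 from 2959330 to 3040676) went the opposite way, from 73.5 and 84.9 FPKM in WT to 33.7 and 37.7 FPKM in TXNDC9-KO libraries. Its fall was 2.21-fold, with a log2 fold change of −1.15 ± 0.12 (SE, adjusted p = 8.59e-04 in limma).

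TEAD2 (ENSG00000074219, chromosome 19 from 49340595 to 49362457), known for its early embryonic expression, was 14.5 and 13.9 FPKM in WT and 6.95 and 7.34 FPKM in TXNDC9-KO libraries. Its log2 fold change of −0.98 ± 0.10 (SE, adjusted p = 8.17e-04 in limma) corresponds to 1.98-fold, just outside the 2-fold limit. TEAD2 shares exon sequence with CD37 on the other strand. TEAD3 (ENSG00000007866, chromosome 6 from 35473597 to 35497079) was 11.04 FPKM in both WT libraries and 10.3 and 10.9 FPKM in TXNDC9-KO libraries. Its log2 fold change was −0.06, with a 95% interval from −0.31 to 0.20 (adjusted p = 0.635 in limma), and the value on the TPM scale was 0.62.

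The summed TEAD level was 114.5 and 123 FPKM in WT and 139.5 and 147 FPKM in TXNDC9-KO libraries, but its make-up differed. TEAD4 gave 64.2% and 69.0% of that sum in WT libraries and 24.1% and 25.6% in TXNDC9-KO libraries. TEAD1 gave 13.5% and 10.7% in WT libraries and 63.5% and 62.0% in TXNDC9-KO libraries. On the FPKM scale the most abundant TEAD transcript was TEAD4 in both WT libraries and TEAD1 in both knockout libraries. The mean share of TEAD1 differed by 50.6 percentage points between the groups, and by 30.8 percentage points once the values were corrected for transcript length and GC content. TEAD2 had 12.0% ± 0.919 of the sum in WT and 4.98% ± 0.00201 in TXNDC9-KO libraries, and TEAD3 had 9.31% ± 0.468 and 7.40% ± 0.0313 (SD, n = 2). The ratio of TEAD4 to TEAD1 was 4.75 and 6.48 in WT and 0.380 and 0.414 in TXNDC9-KO libraries. The exact permutation p was 0.333 for each share and ratio, the smallest that 2 libraries against 2 allow.

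**Figure D2:**
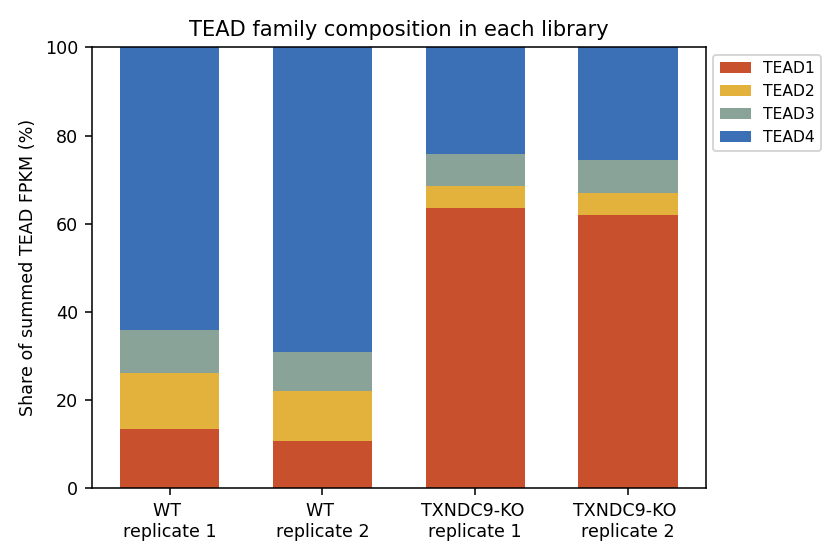
Share (percent) of each TEAD gene in the summed FPKM of the 4 TEAD genes, with 1 bar per library. TEAD4 (blue) takes 64.2% and 69.0% in the WT libraries and TEAD1 (red) 63.5% and 62.0% in the TXNDC9-KO libraries.

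CTGF and CYR61 encode matricellular proteins of the CCN family, secreted factors that bind integrins, and both are standard readouts of YAP activity. CTGF (ENSG00000118523, chromosome 6 from 131948176 to 131951372), whose promoter carries the 3 TEAD motifs shown above, was 7.37 and 7.14 FPKM in WT and 20.2 and 19.9 FPKM in TXNDC9-KO libraries. The groups were far apart relative to the spread between replicates (SD 0.163 FPKM in WT and 0.181 FPKM in TXNDC9-KO libraries), and CTGF rose 2.74-fold (log2 fold change 1.46 ± 0.10 SE, adjusted p = 5.12e-04 in limma). It shares exon sequence with LINC01013 on the other strand. CYR61 (ENSG00000142871, chromosome 1 from 85580761 to 85584589) was 133 and 135 FPKM in WT and 183 and 184 FPKM in TXNDC9-KO libraries. Its log2 fold change of 0.46 had a 95% interval from 0.19 to 0.72 and an adjusted p of 0.0116 in limma, so it was not called. The ratio of CYR61 to CTGF was 18.01 and 18.85 in WT and 9.04 and 9.23 in TXNDC9-KO libraries.

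ANKRD1 (ENSG00000148677, chromosome 10 from 90912096 to 90921087) encodes an ankyrin repeat protein of muscle that is also a common YAP target. It was 3.86 and 6.01 FPKM in WT and 2.78 and 3.51 FPKM in TXNDC9-KO libraries. The WT replicates differed by 0.63 on the log2 scale, as much as the groups did, with a log2 fold change of −0.61 and a 95% interval from −1.23 to 0.01 (adjusted p = 0.0732 in limma). Rescaled to TPM, ANKRD1 stood at 0.06. AMOTL2 (ENSG00000114019, chromosome 3 from 134355347 to 134375479) is an angiomotin-like protein that is both a target and a binding inhibitor of YAP. It was 18.6 and 14.3 FPKM in WT and 22.5 and 23.9 FPKM in TXNDC9-KO libraries. Its log2 fold change was 0.51 with a 95% interval from 0.13 to 0.88 (adjusted p = 0.0264 in limma), and a ribosomal protein pseudogene, RPL39P5, overlaps its exons on the same strand. Of the 2 promoters with more than 1 TEAD motif, that of CTGF thus belonged to a gene called higher and that of ANKRD1 to a gene that was not called.

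In the WT libraries the order of levels per length ran from CYR61 through TEAD4 and YAP1 to AMOTL2, TEAD1, TEAD2, TEAD3, CTGF, WWTR1 and ANKRD1. The values of TEAD4 and YAP1 overlapped, as did those of AMOTL2, TEAD1 and TEAD2 and those of CTGF and WWTR1. In the TXNDC9-KO libraries the order was YAP1, CYR61, TEAD1, TEAD4, AMOTL2, CTGF, WWTR1, TEAD3, TEAD2 and ANKRD1, with no overlap between neighbours. As a rank among the 13246 tested genes, which does not depend on library scaling, TEAD1 moved from percentiles 57.1 and 52.2 in WT to 92.0 and 91.7 in TXNDC9-KO libraries. YAP1 moved from percentiles 86.6 and 82.1 to 97.0 and 97.1, and CTGF from 40.2 and 38.5 to 63.9 and 62.5. TEAD4 was at percentiles 86.2 and 86.3 in WT and 77.1 and 78.4 in TXNDC9-KO libraries. ANKRD1, the lowest member in every library, was at percentiles 26.1 and 34.6 in WT and no higher than 20.4 in TXNDC9-KO libraries.

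Scaling and transcript length moved with these results. After rescaling to TPM, 6 of 10 members were called higher (33.1% of all tested genes) and 0 lower (3.37%). On that scale WWTR1, CYR61 and AMOTL2 joined YAP1, TEAD1 and CTGF, TEAD4 had a log2 fold change of −0.47, and TEAD3 and ANKRD1 changed sign, to 0.62 and 0.06. The members that rose most and fell most also differed in length, the canonical transcript having 9417 nt for TEAD1 and 5401 nt for YAP1, but 1710 nt for TEAD4 and 2175 nt for TEAD2. Among all tested genes with transcripts over 5000 nt, the median log2 fold change was 0.73 and 35.9% were called higher, while among those up to 2000 nt it was −0.72 and 31.0% were called lower. CTGF, with 2338 nt, stood at 1.46 where the median of 2193 genes within 1.2-fold of its length was −0.32. TEAD1 stood at 2.65 where that median was 0.91 over 713 genes, and YAP1 at 1.56 where it was 0.54 over 1975 genes. TEAD4 stood at −1.15 where it was −0.56 over 1706 genes.

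With each library corrected for transcript length and GC content, TEAD1 (log2 fold change 1.64, adjusted p = 0.00131 in limma) and CTGF (1.66, adjusted p = 0.00158) stayed called, 2 of 10 members where 6.3% of all genes were called higher. By p alone, 4 members were higher and 0 lower. YAP1 was at 0.87 (adjusted p = 0.00366 in limma), CYR61 at 0.64 (adjusted p = 0.00399) and WWTR1 at 0.21 (adjusted p = 0.186). TEAD4 was at −0.30 (adjusted p = 0.0559), and with 0 members called lower the share of all genes was 7.5%. TEAD3 changed sign to 0.34. Leaving out either TXNDC9-KO library left 0 of the 13246 genes called by limma in either direction (7129 and 7307 had an unadjusted p under 0.05), the lone sample being assumed to vary like the others. Meanwhile the log2 fold changes of the 4 called members stayed between 2.53 and 2.77 for TEAD1, 1.41 and 1.70 for YAP1, 1.43 and 1.48 for CTGF and −1.25 and −1.04 for TEAD4 whichever library was left out.

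**Figure D3:**
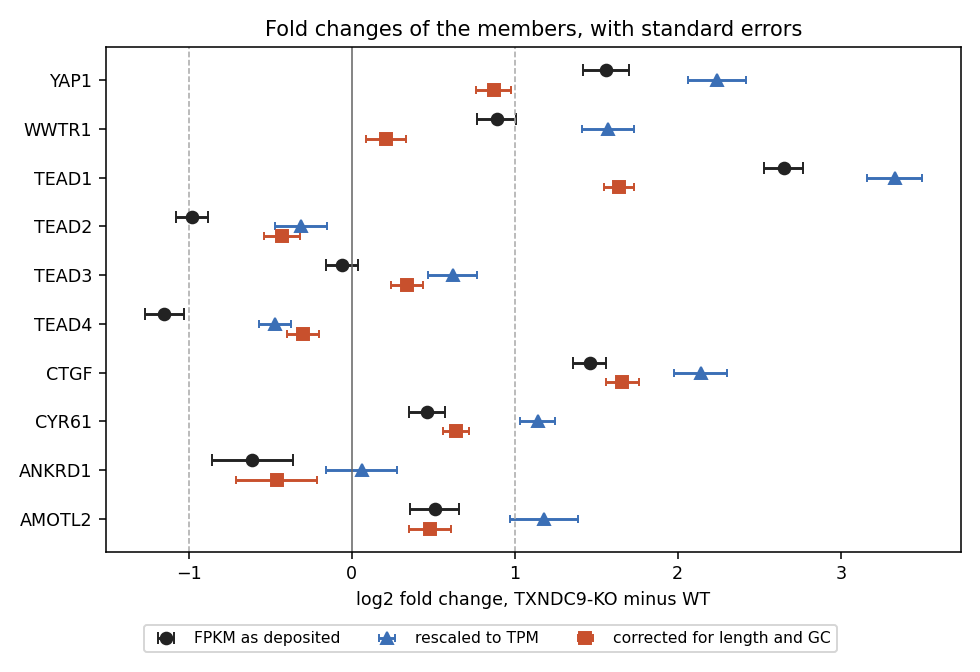
Log2 fold change (TXNDC9-KO minus WT) of each member with its standard error, for FPKM as deposited (black circles), after rescaling to TPM (blue triangles) and after correction for transcript length and GC content (red squares), with dashed lines at 2-fold. TEAD1 (2.65, 3.33 and 1.64) and CTGF (1.46, 2.14 and 1.66) stay beyond 2-fold in all 3, TEAD4 only as deposited.

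**Figure D4:**
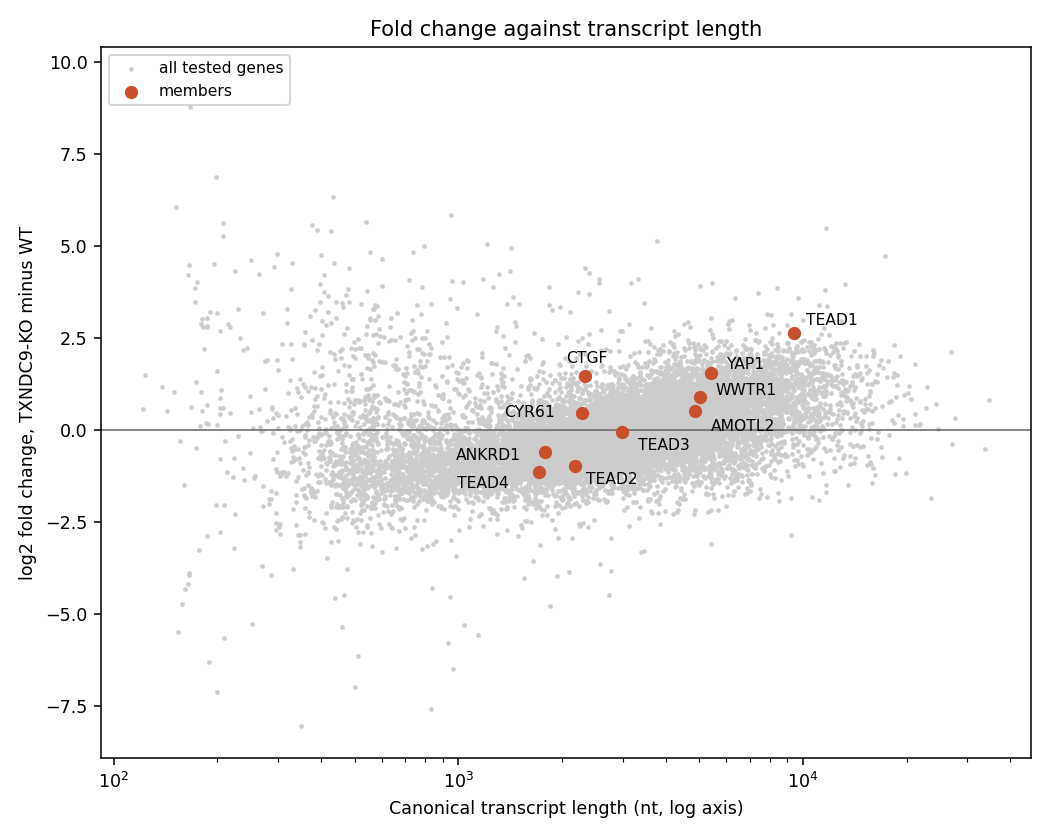
Log2 fold change against canonical transcript length (nt, log axis) for the tested genes with an annotated length (grey) and the 10 members (red). Long transcripts lie higher than short ones, and TEAD1 (9417 nt, at 2.65) and CTGF (2338 nt, at 1.46) lie above the bulk of genes of their lengths.

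Upstream of YAP and TAZ, the core kinase cassette comprises the kinases MST2 (STK3), MST1 (STK4), LATS1 and LATS2. It also holds the scaffold SAV1 and the LATS activators MOB1A and MOB1B. The membrane-linked tumour suppressor NF2, which acts upstream of these kinases, was listed with them. All 8 genes were tested. LATS1, LATS2 and STK4 rose, 0 fell, and 7 of 8 passed the p threshold in the higher direction. The 37.5% called higher compare with 14.2% of all tested genes and with 35.9% of those with transcripts over 5000 nt. The 0 called lower compare with 15.3% and 3.98%, and the 7 passing p with 23.7% of all tested genes. LATS1 was 1.74 and 1.49 FPKM in WT and 5.82 and 6.72 FPKM in TXNDC9-KO libraries (log2 fold change 1.89, adjusted p = 6.14e-04 in limma). LATS2, which is itself a YAP target, was 5.03 and 4.11 FPKM in WT and 12.6 and 12.2 FPKM in TXNDC9-KO libraries (log2 fold change 1.43, adjusted p = 6.71e-04 in limma). STK4 was 5.28 and 5.17 FPKM in WT and 12.1 and 12.4 FPKM in TXNDC9-KO libraries (log2 fold change 1.21, adjusted p = 5.90e-04 in limma).

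The other 5 genes of this list differed less than 2-fold between the groups. STK3, SAV1, MOB1A and MOB1B had log2 fold changes of 0.65, 0.78, 0.68 and 0.72. NF2 was 10.9 and 12.3 FPKM in WT and 10.4 and 10.7 FPKM in TXNDC9-KO libraries, a log2 fold change of −0.13 with a 95% interval from −0.41 to 0.14 (0.54 on the TPM scale). The median over the list, NF2 included, was 0.75 and the median transcript length 5748 nt. After the correction for length and GC content LATS2 alone of the 8 was called, 12.5% against 6.3% of all genes (log2 fold change 1.13, adjusted p = 0.00248 in limma). By p alone, 3 of the 8 were then higher and 0 lower, and MOB1A and MOB1B changed sign, to −0.13 and −0.45.

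A list of 52 further regulators held upstream kinases, angiomotins, VGLL cofactors, 14-3-3 proteins, LIM proteins, casein kinases, ubiquitin ligase subunits and the STRIPAK phosphatase complex. Of these, 45 were tested, 17 rose, 1 fell and 27 were not called. Their log2 fold changes had a median of 0.52, and their transcripts a median length of 4632 nt. The shares of 37.8% called higher and 2.22% called lower compare with 14.2% and 15.3% of all tested genes, with 13.9% and 5.86% of those with transcripts of 3000 to 5000 nt, and with 35.9% and 3.98% of those over 5000 nt. VGLL1 and VGLL2 were listed at 0 in all libraries, and AMOT, DCHS1, MAP4K1, TNIK and FAT4 were also too low to test. FRMD6, counted among those that rose, was 0.808 and 0.869 FPKM in WT and 2.44 and 3.35 FPKM in TXNDC9-KO libraries. It passed the limit for testing only through the knockout libraries. VGLL3, a TEAD-binding cofactor, was 8.45 and 6.62 FPKM in WT and 37.5 and 43.0 FPKM in TXNDC9-KO libraries, a log2 fold change of 2.41. PTPN14, a phosphatase that binds YAP and retains it in the cytoplasm, was 4.94 and 3.92 FPKM in WT and 23.8 and 23.5 FPKM in TXNDC9-KO libraries, a log2 fold change of 2.40. Both rose along with TEAD1 and YAP1, by 5.31-fold and 5.28-fold.

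MAP4K5 and TAOK1, kinases that feed into LATS1/2 and MST1/2, rose with log2 fold changes of 2.02 and 1.98. WTIP, a LIM protein of the Ajuba family that restrains LATS kinases, fell from 12.7 and 9.38 FPKM to 3.53 and 4.16 FPKM, a log2 fold change of −1.49. After the correction for length and GC content 6 of the 45 regulators were called higher (13.3%, against 6.3% of all genes) and 2 lower (4.44%, against 7.5%). VGLL3 (1.21), PTPN14 (1.52), MAP4K5 (1.38) and WTIP (−1.86) stayed called, and TAOK1 (0.86) did not.

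Among 18 further genes in common use as YAP/TAZ targets, 17 were tested (RBMS3 was too low), 6 rose, 2 fell and 9 were not called. The median of their log2 fold changes was 0.62 and that of their transcript lengths 5546 nt. The shares of 35.3% called higher and 11.8% called lower compare with 14.2% and 15.3% of all tested genes, and with 35.9% and 3.98% of those with transcripts over 5000 nt. PTPN14 and LATS2 belong to this list as well as to those above. MYOF, a membrane repair protein, was 21.7 and 19.2 FPKM in WT and 69.2 and 74.5 FPKM in TXNDC9-KO libraries, and CRIM1, a membrane protein that binds BMPs, 23.9 and 22.6 FPKM in WT and 72.0 and 77.6 FPKM in TXNDC9-KO libraries. Their log2 fold changes were 1.81 and 1.68, and that of DOCK5, a Rac exchange factor, was 1.44.

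The targets that fell were IGFBP3, a binding protein of insulin-like growth factors, and FOXF2, a forkhead transcription factor. IGFBP3 was 149 and 171 FPKM in WT and 67.1 and 79.4 FPKM in TXNDC9-KO libraries (log2 fold change −1.12), and FOXF2 was 32.3 and 29.8 FPKM in WT and 12.4 and 14.6 FPKM in TXNDC9-KO libraries (log2 fold change −1.20). After the correction for length and GC content, 4 of 17 targets were called higher (23.5%, against 6.3% of all genes) and 2 lower (11.8%, against 7.5%). MYOF (1.09), CRIM1 (1.11) and IGFBP3 (−1.02) stayed called, while DOCK5 (0.50) and FOXF2 (−0.45) did not. After rescaling to TPM, 9 targets were called higher (52.9%, against 33.1% of all tested genes) and 0 lower (against 3.37%).

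**Figure D5:**
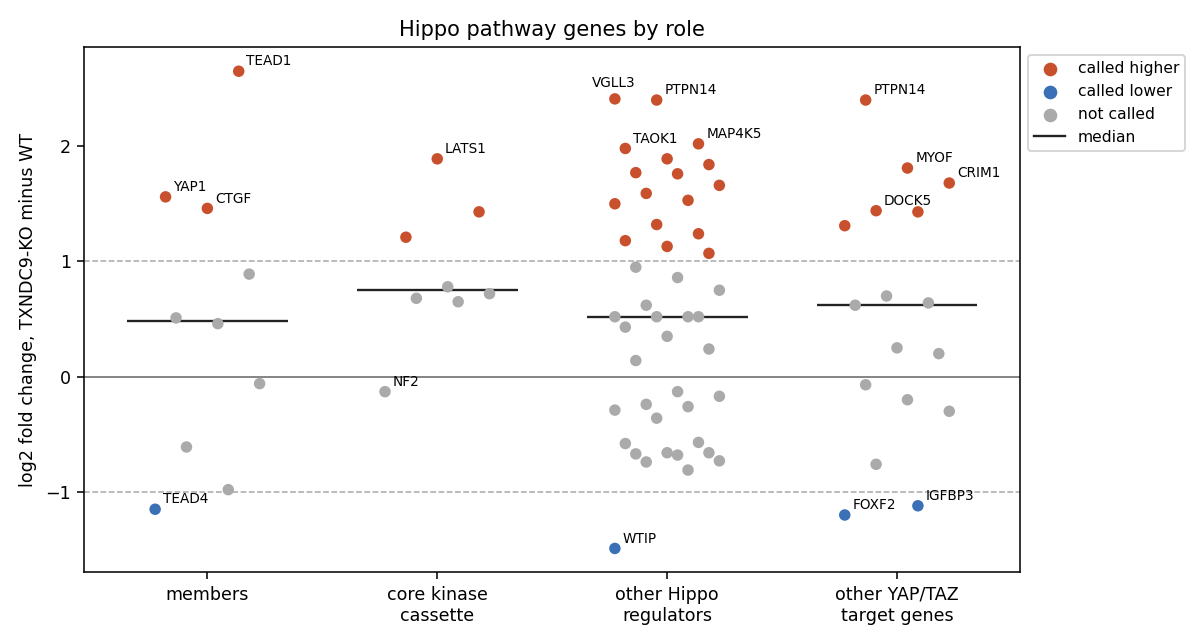
Log2 fold change (TXNDC9-KO minus WT) of each tested gene of the 4 lists, coloured by call, with the list median as a black line and dashed lines at 2-fold. Medians are 0.48 for the members, 0.75 for the core cassette with NF2, 0.52 for the other regulators and 0.62 for the other targets. Each list except the core cassette holds genes called in both directions.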

How the data were processed

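RNA was poly(A)-selected and sequenced in 2 WT and 2 TXNDC9-KO libraries. The authors mapped reads to hg38 with TopHat2 and an Ensembl annotation, and the deposited FPKM were estimated for each gene in each library by Cuffdiff (Cufflinks). Versions, library normalization and strand use are not given in the sources used here. Columns with the authors' averages, log2 fold changes, p-values and q-values were not used. Identifiers stood out of register with the symbols. Reordered, 34949 of 56935 annotated identifiers carried their current or an older symbol, against 1 of 57891 rows as deposited, and all members did so. Low FPKM values showed no step worth 1 read (at most 4.5% of low genes shared a log2 ratio), so depth is unknown and no counting intervals are given.

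For the 13246 genes averaging above 1 FPKM, log2(FPKM + 0.1) entered a limma model (version 3.58.1, R 4.3.3, trended prior variance, no block). Lengths and GC content of canonical transcripts came from GENCODE release 44. The correction fitted a loess curve (span 0.3) per library over 13112 annotated genes. Alternatives were a pseudocount of 1 FPKM, no filter, the replicate block, TPM, the correction and each library left out. The members and lists were chosen with earlier results of these data known. Named were TXNDC9, all members, core genes and cell type markers, and up to 4 called genes per direction of the other lists by fold change. FRMD6 and the regulators and targets named as untested were chosen after their values were seen. A further marker list is not reported here. Python 3.11.15, pandas 2.3.3, scipy 1.17.1 and matplotlib 3.10.9 were used.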

Additional observations from a re-analysis of the deposited data

How the results depend on the processing

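A pseudocount of 1 FPKM, no filter and the replicate block changed no call among 29 named genes. These were TXNDC9, the members, the core genes and those picked by fold change. Of the list counts only that of regulators called higher moved, from 17 to 16 with no filter. Same-numbered libraries showed no shared deviation from their group means (correlation −0.0904), which cannot show whether they were prepared together. With the replicate block 1 member was called lower and 3 higher, 2146 and 1960 among all genes. On the TPM scale 0 members were called lower and 6 higher, 7 core genes higher, 0 regulators lower and 27 higher, and 0 targets lower. After the correction for length and GC content 0 members were called lower, 1 core gene higher, and 2 regulators lower and 6 higher. Over all genes, 2021 were called lower and 1885 higher, against 447 and 4380 on the TPM scale and 983 and 826 after the correction. Signs turned for TXNDC9 (0.12), TEAD3 (0.62), ANKRD1 (0.06) and NF2 (0.54) on the TPM scale and for TEAD3 (0.34), MOB1A (−0.13) and MOB1B (−0.45) after the correction.

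Leaving out 1 library at a time, members called ranged from 0 to 2 lower and 0 to 3 higher, core genes from 0 to 3 higher, regulators from 0 to 1 lower and 0 to 17 higher, and targets from 0 to 3 lower and 0 to 7 higher. The zeros came from leaving out either TXNDC9-KO library, where the smallest adjusted p of limma was 0.016 or 0.0232, and TEAD2 was called without WT replicate 2 (−1.01). Read depth is unknown, and 2 libraries per group limit every interval.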
